A study of Mus musculus with 8 samples.

Results

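Pam, the enzyme that amidates neuropeptides, was examined with 8 other genes of neuropeptide processing in Tet1 knockout (KO) and wild-type (WT) mouse brain. The 9 genes were the processing enzymes Pam, Pcsk2 and Cpe, the enzyme regulators Pcsk1n and Scg5, and the granins Scg2, Scg3, Chga and Chgb. They were chosen by gene symbol on the array, and the set was put together because Pam was lower in KO than in WT in both tissues, so the KO to WT values of Pam are given as a description with no test. The 9 genes are 9 of the 23688 symbols on the array, their 12 probes are 12 of 31399 probes with a symbol, and all 9 were among the 16780 genes tested. All 12 probes were well above background in all 8 samples.

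Neuropeptides are made as long precursors that are packed with granins into dense-core vesicles, cut there by proprotein convertases at basic residues, and trimmed by carboxypeptidases. Where the cut peptide ends in glycine, Pam, which needs copper and ascorbate, turns the end into an amide, and many neuropeptides bind their receptors well only in the amidated form. Granins are acidic proteins that take part in forming and loading the vesicles and are themselves cut into peptides.

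Tet1 oxidises 5-methylcytosine in DNA, and the study compared the transcripts of brain tissue with and without it. The 4 groups of 2 samples were cortex of Tet1 KO mice, cortex of WT mice, hippocampus of Tet1 KO mice and hippocampus of WT mice. All the mice were naive, of the genetic background 129 C57BL6, and the input of each sample was 0.5 µg of total RNA from snap-frozen tissue. The labels give no age or sex and do not state which part of Tet1 was deleted. They also leave unstated whether each replicate is an animal of its own and whether 1 animal gave both tissues. Each of 4 two-colour arrays held 1 KO sample in Cy5 and 1 WT sample in Cy3 of the same tissue. With no swap of the dyes, a dye effect of a probe and an effect of genotype cannot be told apart in KO over WT, whereas cortex and hippocampus of one genotype carry the same dye. P-values therefore measure how far the samples of a group spread, which can be technical, and bulk tissue cannot tell fewer cells of a type from less RNA per cell.

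Between 66.6% and 67.2% of the spots were well above background in the KO channel and 49.7% to 51.7% in the WT channel, and no spot was saturated. Log ratios of the arrays correlated across genes at 0.32 to 0.64. The brightest Tet1 probe had a KO over WT of -0.19 ± 0.07 (adjusted p = 0.225, limma) for cortex and -0.17 ± 0.07 (adjusted p = 0.234) for hippocampus, and the others averaged -0.22 and 0.21. The Tet1 probe at 0.21 was well above background in only 4 of the 8 samples, and the rest were in all 8. A probe outside the deleted part checks nothing about the genotype, and whether the Tet1 probes lie inside it is not known. Marker lists of cortex and hippocampus followed the tissue labels, with medians of cortex over hippocampus of 1.13 and -1.71 in KO and of 1.004 and -1.71 in WT. The 12 choroid plexus markers stood apart between samples. Their mean log2 level was 11.90 and 11.13 in KO cortex, 11.29 and 9.08 in WT cortex, 8.83 and 9.48 in KO hippocampus, and 8.79 and 12.20 in WT hippocampus.

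Levels below are log2 intensities after background correction, loess normalisation within each array and scaling between arrays. KO over WT is a log2 ratio on 1 array, fitted values carry the SE of limma, and a gene passed the test at an adjusted p under 0.05 over the 16780 genes. In the mean of both tissues 1828 genes passed (10.9%), with 7.12% higher and 3.77% lower in KO, while 10 genes passed in cortex (0.0596%), 3 in hippocampus (0.0179%) and none in the difference between the tissues (0%, although limma gave 750 genes an unadjusted p under 0.05). Single probes cannot be compared in level with one another, so levels are compared only within a probe.

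Pam was much lower in KO than in WT on every array. Its log2 level was 9.48 and 9.57 in KO cortex, against 10.90 and 11.17 in WT cortex, and 9.42 and 9.58 in KO hippocampus, against 11.02 and 11.07 in WT hippocampus. The 4 KO levels lay below all 4 WT levels, with no overlap, as they did for 1031 of the 16780 genes. In either direction 16.6% of all genes had no overlap. KO over WT of cortex was -1.42 and -1.60, which averaged -1.51 ± 0.13 (SD, n = 2) or 2.85-fold lower, and that of hippocampus -1.60 and -1.49, which averaged -1.54 ± 0.08 (SD, n = 2) or 2.91-fold lower. Over the 4 arrays the KO level was 34.7% of the WT level. Of the 16780 genes, 53 had a mean of both tissues beyond 1 in either direction, 34 of them lower in KO, and 10 genes were at least as low as Pam, itself included.

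The mean scanned signal of the Pam spot before correction was 1098, 1119, 936 and 1004 in KO against 1602, 1754, 1633 and 1605 in WT, in the order of the 2 cortex and 2 hippocampus arrays. KO was thus dimmer than WT at this spot on each array before any normalisation, beside array medians of 257 to 294 in KO and 353 to 359 in WT. Negative control spots had medians of 79.3 to 80.8 in KO and 247 to 263 in WT. The raw signals of the channels therefore do not share a floor, and their difference is not a size of the change. The size of the ratio depended on the treatment of a few spots whose local background the scanner software marks as outlying, although the Pam spot is not one of them. With those backgrounds kept as scanned, the Pam ratio was -0.54 and -1.33 in cortex and -1.48 on each hippocampus array. Median centring of the arrays, used instead of loess, moved the median of all genes up by 0.50. It put the mean Pam ratio at -0.98, which is -1.503 relative to the median of all genes.

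**Figure D1:**
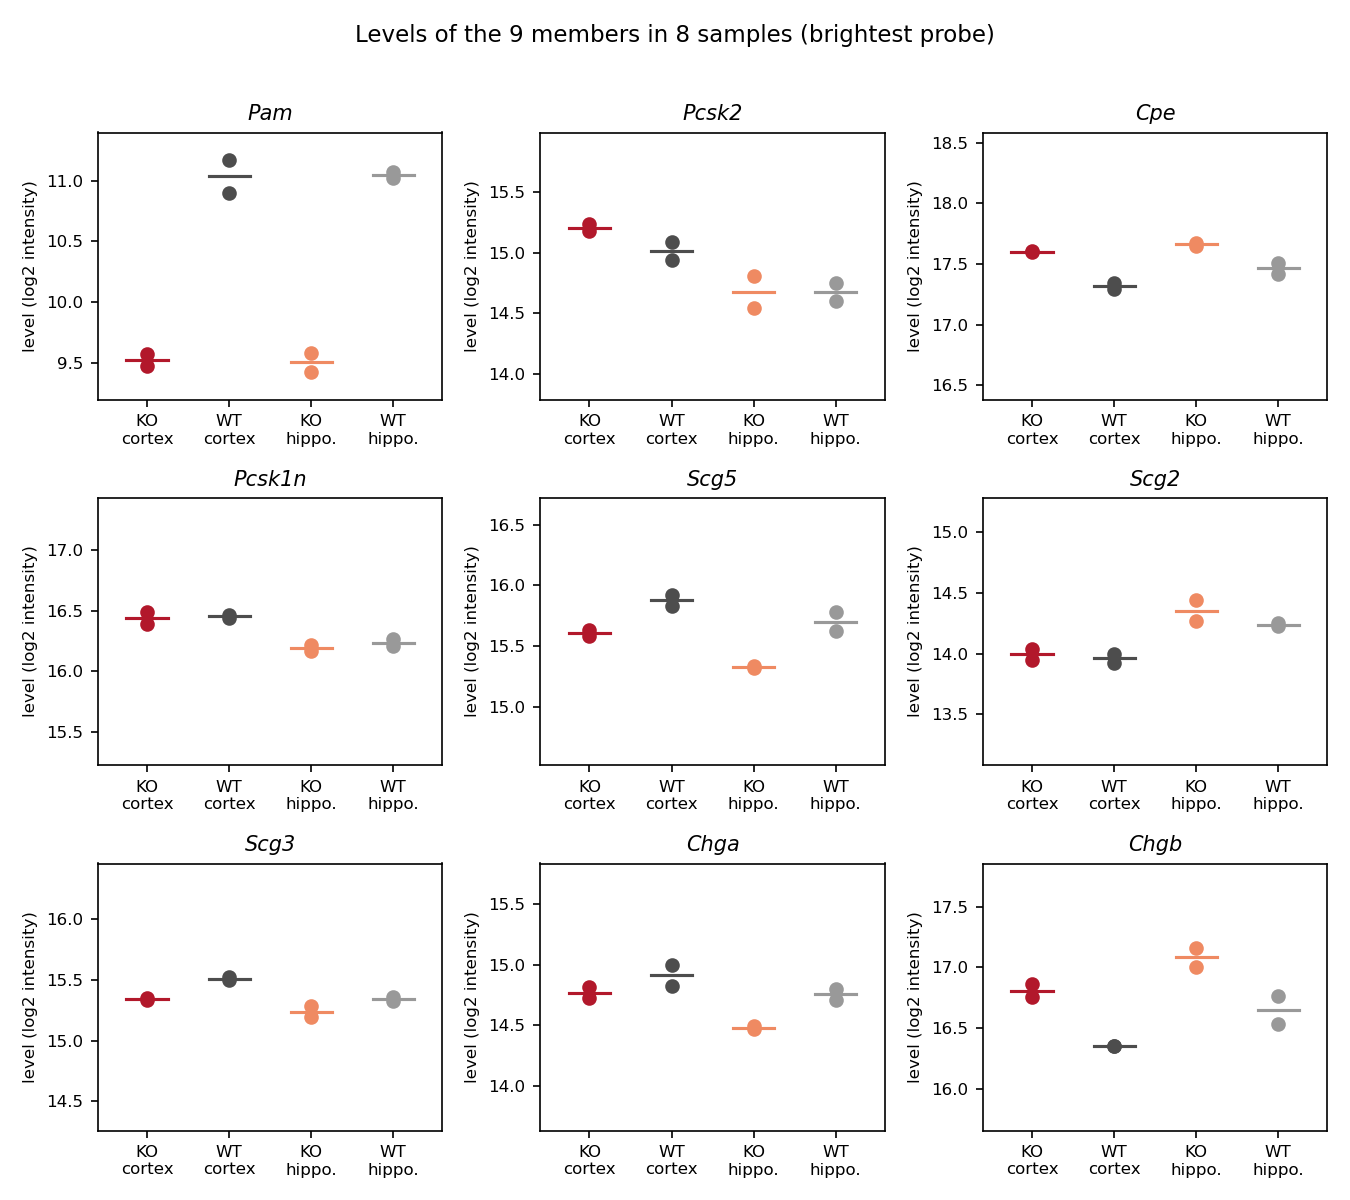
Log2 level of the brightest probe of each of the 9 genes in the 8 samples, with a panel for each gene and KO left of WT in each tissue. Points are samples and lines are means of 2 samples, and all panels span the same number of log2 units. The Pam levels lie between 9.42 and 9.58 in KO and between 10.90 and 11.17 in WT, while the other 8 genes stay within a narrower range.

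Cortex and hippocampus did not separate at Pam. The order of the group means was KO hippocampus at 9.50 ± 0.11, KO cortex at 9.52 ± 0.07, WT cortex at 11.04 ± 0.19 and WT hippocampus at 11.04 ± 0.04 (SD, n = 2 each). The neighbours within a genotype overlapped. Cortex over hippocampus was 0.02 ± 0.09 in KO (adjusted p = 0.912, limma) and -0.01 ± 0.12 in WT (adjusted p = 0.974). With outlying backgrounds kept, the KO value was 0.53 and did not pass (adjusted p = 0.119). Background for these comparisons was 15.8% of genes passing in KO and 8.86% in WT.

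Pam is measured by 1 probe, and its sequence is shown because every Pam value rests on it. The probe lies at chr1:99718052-99718111 (mm9, minus strand) and starts at position 3662 of the transcript that the array files assign to it, which do not say whether it is in an exon or a UTR. Bases 31 to 60 of its 60 bases, as the array files give them, read as follows, with G and T in a run without A or C in capitals.
Pam probe A_55_P1969156: TGGTTTTTTGGTTTTGGTTTTGGTTTGGTT
The run of G and T is 33 bases long, and 44 of 39429 probes (0.112%) hold a run of that length or more. Besides Pam, 34 tested genes have such a run in their brightest probe, and in the mean of both tissues 18 of them were higher (52.9%, against 7.12% of all genes) and 1 lower (2.94%, against 3.77%) in KO, with a median of 0.34. The lower one, Rbfox2, had -0.37, and the highest value was 0.52. The part that base composition has in these values and in that of Pam was not tested.

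Pam lies between Gin1 and Slco6d1 in the order of protein-coding genes in RefSeq (GRCm38.p6). Of the 5 other tested genes with a probe within 1000000 bases of the Pam probe, Gin1 passed in the mean of both tissues, higher in KO by 0.93 ± 0.05 (adjusted p = 0.0131, limma), and the other 4 did not. Gin1, a gene named for its likeness to a retrotransposon integrase, has its brightest probe at -43.9 kb from that of Pam and had KO over WT of 0.77 and 0.93 in cortex and 1.002 and 1.03 in hippocampus. All 4 arrays were above 0, as they were at the other Gin1 probe (0.40, 0.38, 0.45 and 0.47), which was well above background in only 4 of the 8 samples. Ppip5k2, a kinase of inositol pyrophosphate synthesis on the far side of Gin1, stayed between -0.07 and 0.10 at its brightest probe, and its other probe, well above background in 4 of the 8 samples, had 0.21, -0.03, 0.14 and 0.24. Gm5101 and D1Ertd622e, at greater distance on that side, had means of 0.07 and -0.03, and Gm7967, on the other side, had -0.04, -0.23, -0.42 and -0.32. Within 5000000 bases, 4 of the 36 other tested genes were higher and 3 lower (19.4%, against 10.9% of all genes), with a median of -0.0041.

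**Figure D2:**
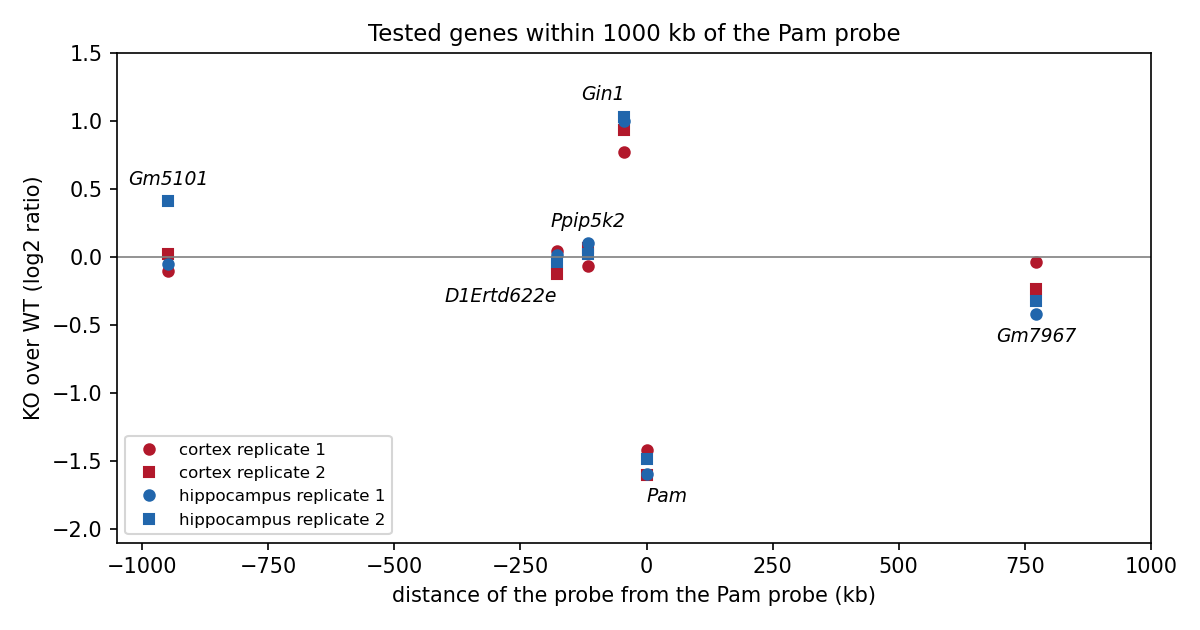
KO over WT on each of 4 arrays (vertical, log2 ratio) of the 6 tested genes with a probe within 1000000 bases of the Pam probe, by distance of the probe from the Pam probe (horizontal, kb). Pam lies between -1.60 and -1.42, Gin1 between 0.77 and 1.03, and the other 4 genes between -0.42 and 0.41.

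The genes whose log2 levels were most like those of Pam over the 8 samples, among 12760 genes well above background in all of them, were Zfp429 (r = 0.998), Sdr42e1 (r = 0.993), Nrbp1 (r = 0.992), Nsun2 (r = 0.987) and Spcs1 (r = 0.986). The 8 points form a KO and a WT cluster and pairs of points share an array, so genes lower in KO on every array can come out alike, and 214 genes had r over 0.9. Zfp429 had levels of 7.07 and 7.03 in KO cortex, against 8.37 and 8.54 in WT cortex, and 7.04 and 7.11 in KO hippocampus, against 8.42 and 8.50 in WT hippocampus. Nrbp1, in contrast, had 11.85 and 11.88 in KO cortex, against 12.02 and 12.08 in WT cortex, so a high r went with a small difference. Among the other 8 members, r with Pam was 0.80 for Scg5, 0.67 for Scg3, 0.66 for Chga, 0.13 for Pcsk1n, -0.19 for Scg2, -0.19 for Pcsk2, -0.82 for Chgb and -0.87 for Cpe.

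The other 8 genes did not share the direction of Pam as a set. In the mean of both tissues 2 rose in KO (Cpe and Chgb), 1 fell (Scg5) and 5 did not pass, with 4 above and 4 below 0 and a median of 0.02 against 0.03 for all genes. These 3 of 8 stand beside the 10.9% of all genes that passed. With median centring, which called 14488 genes, all 8 passed above 0 in the mean and in each tissue. Fits with an array left out called almost no gene at all, so they decide nothing about the 8. In limma none of the 8 passed in cortex alone, in hippocampus alone or in the difference between the tissues. There 4, 4 and 0 of the 8 had an unadjusted p under 0.05, beside 3548, 3977 and 750 of the 16780 genes. A separate-channel fit called 1 of the 8 in cortex, 2 in hippocampus and 0 in the difference, beside 691 of 16780 genes in cortex and 1005 in hippocampus. KO over WT had the same sign on all 4 arrays in 6 of the 8 genes, 3 above and 3 below 0, beside 45.7% of all genes. The 4 KO levels were clear of the 4 WT levels in 1 of the 8, Cpe, which was above, beside 16.6% of all genes. Within a tissue the KO and WT levels of 6 of the 8 did not overlap in cortex (55.8% of all genes) and of 6 in hippocampus (51% of all genes).

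**Figure D3:**
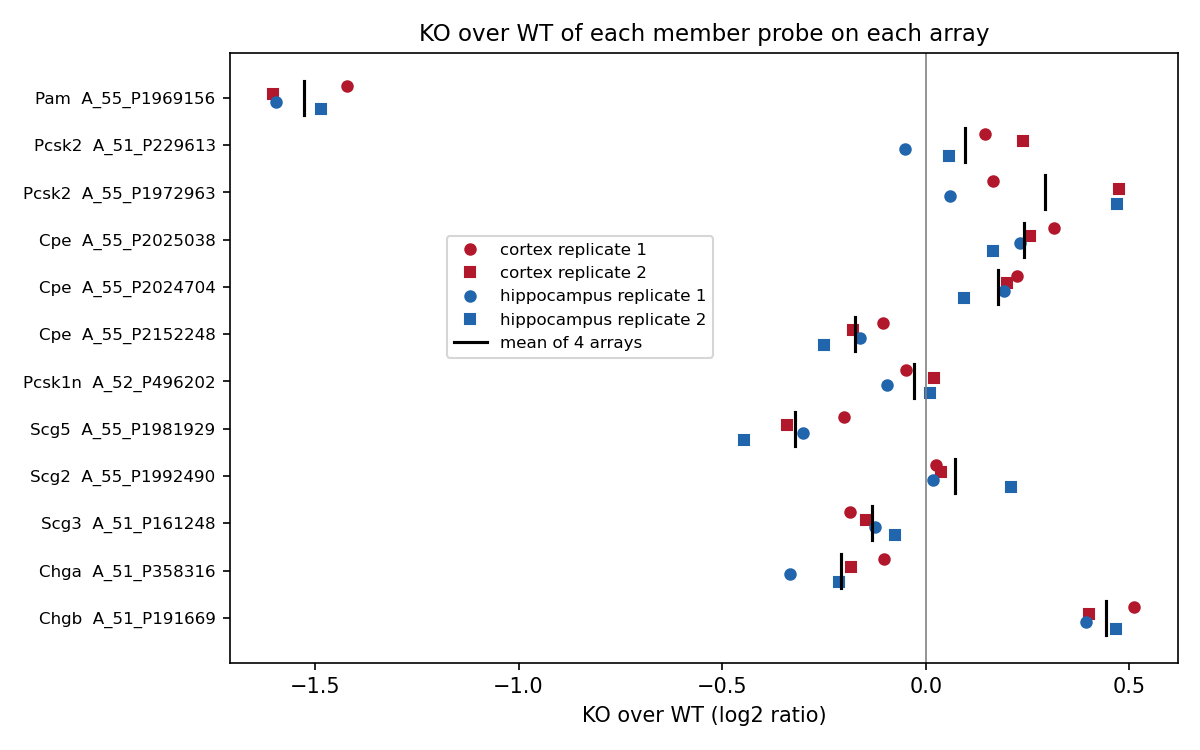
KO over WT (horizontal, log2 ratio) of each of the 12 probes of the 9 genes on each of 4 arrays, with the mean of the 4 arrays as a black bar. Pam lies below -1.4 and every other value lies between -0.45 and 0.51. Scg5, Scg3 and Chga lie below 0 here and above 0 when median centring takes the place of loess.

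Pcsk2 is the convertase that cuts many neuropeptide precursors late in the vesicle. Its brightest probe, at chr2:143639649-143639708 (mm9, plus strand), had 15.23 and 15.18 in KO cortex, against 15.09 and 14.94 in WT cortex, and 14.55 and 14.81 in KO hippocampus, against 14.60 and 14.75 in WT hippocampus. The KO levels were above the WT levels in cortex and overlapped them in hippocampus. KO over WT was 0.15, 0.24, -0.05 and 0.06, with a mean of 0.10 ± 0.05 (adjusted p = 0.234, limma), and did not pass. The second Pcsk2 probe, at chr2:143641856-143641915, had 0.17, 0.47, 0.06 and 0.47, a mean of 0.29 ± 0.09 that did not pass either (adjusted p = 0.105 over all probes). Both probes are thus on the positive side in the mean and differ in their spread between arrays.

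Cpe, carboxypeptidase E, removes the basic residues that the convertases leave at the end of a peptide. Its brightest probe had 17.61 and 17.60 in KO cortex, against 17.29 and 17.34 in WT cortex, and 17.65 and 17.68 in KO hippocampus, against 17.42 and 17.51 in WT hippocampus. All 4 KO levels were above all 4 WT levels. KO over WT was 0.32, 0.26, 0.23 and 0.17, and Cpe rose by 0.24 ± 0.05 in the mean of both tissues (adjusted p = 0.0453, limma). The value was 0.29 ± 0.06 for cortex alone (adjusted p = 0.132) and 0.20 ± 0.06 for hippocampus alone (adjusted p = 0.172). The call did not hold with the mean of all Cpe probes (0.08, adjusted p = 0.270) or with the scanner software's processed signals. It was lost too with outlying backgrounds kept, with a variance trend and with an array left out, but there few or no genes at all passed. The adjusted p ran from 1.49e-06 to 0.273 over 17 alternatives.

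The 3 Cpe probes did not move together, and their sequences are shown because the direction of Cpe depends on which is read. They are bases 31 to 60 of each probe on the minus strand, as the array files give them, with the poly(A) signal AATAAA in capitals.
Cpe probe A_55_P2025038: gttaatgccacttcagagtttggggttttg
Cpe probe A_55_P2024704: aattgcattctgatgAATAAAggcaaaaaa
Cpe probe A_55_P2152248: caaaaactccctcatcagctacctggagca
The first 2 lie at chr8:67071401-67071460 and chr8:67071349-67071408, overlap at their ends, and start at transcript positions 1981 and 2033. The remaining one lies at chr8:67085401-67085460 and starts at transcript position 1143. A_55_P2024704 had KO over WT of 0.22, 0.20, 0.19 and 0.09, with a mean of 0.18 ± 0.05 (adjusted p = 0.0768 over all probes). A_55_P2152248 was below 0 on every array, with -0.10, -0.18, -0.16 and -0.25 and a mean of -0.17 ± 0.05 (adjusted p = 0.0826). The probes near the end of the transcript and the one farther from it thus had opposite signs on all 4 arrays, and neither of these additional probes passed. AATAAA or ATTAAA occurs in 3 of the 12 probes of the 9 genes and in 16.7% of all probes on the array.

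Scg5 encodes the chaperone that Pcsk2 needs to mature, and it was the only member besides Pam that passed below 0. Its probe, at chr2:113616781-113616840 (mm9, minus strand), had 15.63 and 15.58 in KO cortex, against 15.83 and 15.92 in WT cortex, and 15.32 and 15.34 in KO hippocampus, against 15.62 and 15.78 in WT hippocampus. KO lay below WT in each tissue, but KO cortex overlapped WT hippocampus. KO over WT was -0.20, -0.34, -0.30 and -0.45, and Scg5 fell by 0.32 ± 0.05 on the log2 scale in the mean of both tissues (adjusted p = 0.0403, limma), whereas with arrays centred on their median it lay 0.13 above the median of all genes. The call was also lost with the scanner software's processed signals. It was lost too with outlying backgrounds kept, with a variance trend and with an array left out, but there few or no genes at all passed. The adjusted p ran from 1.80e-05 to 0.197, a range that includes median centring, where Scg5 passed above 0. Scg5 and Pcsk2, chaperone and enzyme, had opposite signs on 3 of the 4 arrays.

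Pcsk1n encodes proSAAS, an inhibitor of the convertase Pcsk1. Its probe, at chrX:7500267-7500326 (mm9, plus strand), had KO over WT of -0.05, 0.02, -0.09 and 0.01. The levels ranged from 16.17 to 16.49 in KO and from 16.21 to 16.47 in WT, so the genotypes overlapped in both tissues. The mean was -0.03 ± 0.05 (adjusted p = 0.709, limma), the smallest in size of the 9 genes, and turned positive with outlying backgrounds kept and with median centring.

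Of the granins, Chgb, the acidic granin chromogranin B, had the largest positive value among the 9 genes. Its probe, at chr2:132620703-132620762 (mm9, plus strand), is spotted 10 times on each array, and the mean of its spots had 16.86 and 16.75 in KO cortex, against 16.35 and 16.35 in WT cortex, and 17.16 and 17.00 in KO hippocampus, against 16.77 and 16.54 in WT hippocampus. KO lay above WT in each tissue, and KO cortex overlapped WT hippocampus. KO over WT was 0.51 ± 0.05, 0.40 ± 0.10, 0.39 ± 0.05 and 0.47 ± 0.09 on the 4 arrays (SD over 10 spots, which share 1 sample pair), and no spot was below 0.28. Chgb rose by 0.44 ± 0.05 in the mean of both tissues (adjusted p = 0.0259, limma), with 0.46 ± 0.07 for cortex alone (adjusted p = 0.0951) and 0.43 ± 0.07 for hippocampus alone (adjusted p = 0.0811). With the scanner software's processed signals the call was lost. It was lost too with outlying backgrounds kept, with a variance trend and with an array left out, but there few or no genes at all passed. The adjusted p ran from 1.49e-06 to 0.136 over 17 alternatives.

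Chga, chromogranin A, was on the other side of 0. Its probe, at chr12:103803083-103803142 (mm9, plus strand), had 14.72 and 14.82 in KO cortex, against 14.82 and 14.999 in WT cortex, and 14.47 and 14.50 in KO hippocampus, against 14.80 and 14.71 in WT hippocampus. KO lay below WT in each tissue, though narrowly in cortex. KO over WT was -0.10, -0.18, -0.33 and -0.21, with a mean of -0.21 ± 0.05 (adjusted p = 0.0651, limma), which did not pass and which median centring put 0.16 above the median of all genes. Without background subtraction, with the authors' deposited values and in the separate-channel fit Chga passed in the same direction (adjusted p = 0.0467, 0.0456 and 0.0360). Over 17 alternatives the adjusted p ran from 1.31e-05 to 0.288, and the lowest was that of median centring, where Chga was above 0. Chga and Chgb, the chromogranins, thus had opposite signs on all 4 arrays.

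Scg3, secretogranin III, is thought to hold granin aggregates at the vesicle membrane. Its probe, at chr9:75491320-75491379 (mm9, minus strand), had KO over WT of -0.19, -0.15, -0.12 and -0.08, with a mean of -0.13 ± 0.04 (adjusted p = 0.118, limma), and median centring put it 0.29 above the median of all genes. Scg2, secretogranin II, is the precursor of secretoneurin. Its probe, at chr1:79431323-79431382 (mm9, minus strand), had 0.03, 0.04, 0.02 and 0.21, with a mean of 0.07 ± 0.05 (adjusted p = 0.390). Neither passed, and none of the 8 members differed between the tissues in its KO over WT (adjusted p = 0.999946 for each).

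Markers of other cells did not all stay level beside these ratios. The median KO over WT of the 12 choroid plexus markers was 0.52, 2.10, 0.04 and -2.78 on the 4 arrays, and that of 7 neuron markers was 0.22, 0.13, -0.01 and 0.19. The median of 7 thalamus markers was -0.07, -0.10, -0.20 and -1.08, and that of 7 striatal neuron markers -0.47, -0.19, -0.22 and 0.30. Oligodendrocyte markers had medians of -0.31, -0.0042, 0.0029 and -0.49, endothelial markers -0.04, -0.04, -0.22 and -0.48, and microglia markers -0.25, -0.23, 0.07 and -0.12. The other 5 lists, of cortex, hippocampus, inhibitory neurons, astrocytes and pituitary or hypothalamus, stayed between -0.16 and 0.17. The choroid plexus, thalamus, oligodendrocyte and endothelial lists thus had their lowest median on the second hippocampus array, and the part of the lists in the ratios of the 9 genes was not tested. Of 6 tested pituitary or hypothalamus markers, 1 was well above background in all samples.

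Between tissues the 9 genes fell on both sides of 0. In KO, 8 of the 9 had cortex and hippocampus levels that did not overlap (5 above and 3 below in cortex), against 60.1% of all genes, and in WT also 8 of the 9 (5 above and 3 below), against 55.9% of all genes. Pcsk2 passed in KO (1 of 9, 11.1%, against 15.8% of all genes). None of the 9 passed in WT in limma or in any of 16 alternatives, with 8.86% of all genes passing in limma. In WT 4 of the 9 had an unadjusted p under 0.05 in limma, beside 4049 of the 16780 genes. The genotypes were not shown to differ in cortex over hippocampus, since the difference between the tissues' KO effects, which is the same quantity, did not pass for any of the 9.

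Pcsk2 was higher in cortex by 0.53 ± 0.11 in KO (adjusted p = 0.0334, limma) and by 0.34 ± 0.10 in WT (adjusted p = 0.128). At the second probe the values were 0.54 ± 0.10 in KO (adjusted p = 0.0341 over all probes) and 0.49 ± 0.19 in WT (adjusted p = 0.231). Without KO cortex replicate 1, KO cortex replicate 2 or KO hippocampus replicate 1 the value of the brightest probe was 0.50, 0.55 or 0.40, and it no longer passed (adjusted p = 0.162, 0.123 or 0.0628). Scg5 had 0.28 ± 0.07 in KO and 0.17 ± 0.10 in WT, Chga 0.29 ± 0.07 and 0.16 ± 0.10, Pcsk1n 0.25 ± 0.07 and 0.22 ± 0.08, and Scg3 0.10 ± 0.07 and 0.17 ± 0.08, all above 0 and none past the threshold. Scg2 had -0.36 ± 0.09 in KO and -0.28 ± 0.08 in WT, Chgb -0.27 ± 0.09 and -0.30 ± 0.11, and Cpe -0.06 ± 0.06 and -0.15 ± 0.08, all below 0 and none past the threshold. In KO, Scg5 passed in 7 of 16 alternatives, Scg2 in 3, and Pcsk1n and Chga in 1 each, always in these directions. The granins lay on both sides of 0, with Chga and Scg3 above and Scg2 and Chgb below in both genotypes.

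**Figure D4:**
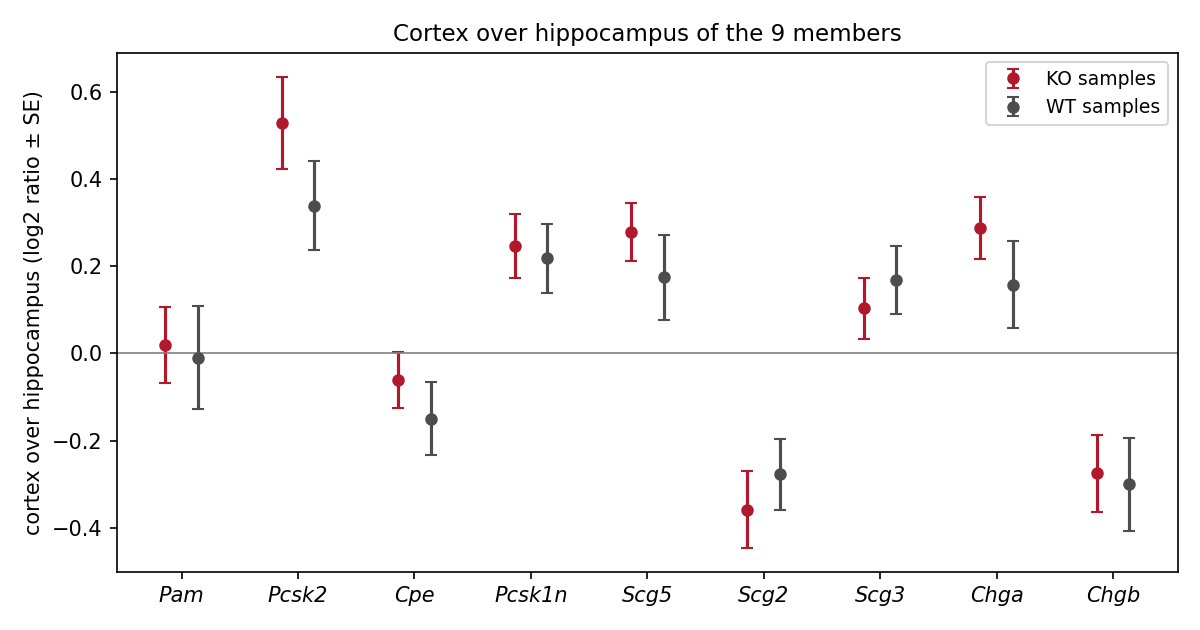
Cortex over hippocampus (vertical, log2 ratio with the SE of the fit) of the 9 genes in KO samples and in WT samples, each from 2 cortex and 2 hippocampus samples. Pam lies at 0.02 in KO and -0.01 in WT, Pcsk2 is highest at 0.53 and 0.34, and Scg2 in KO is lowest at -0.36.

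Markers of striatal neurons, cells that lie under the cortex and are rich in neuropeptide precursors, were higher in the cortex samples than in the hippocampus samples. All 7 tested striatal neuron markers passed as higher in cortex in both genotypes, with a median of 2.60 in KO and 2.61 in WT. Their mean log2 level was 11.91 and 11.92 in KO cortex, 12.34 and 12.06 in WT cortex, 8.97 and 9.43 in KO hippocampus, and 9.06 and 9.19 in WT hippocampus. Of the 12 choroid plexus markers 10 passed as higher in cortex in KO (median 1.98) and 0 in WT (median -0.27, limma). The part of either cell type in the tissue values of the 9 genes and of the lists that follow was not tested.

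Of the 97 further symbols in 6 lists around the 9 genes, 93 were on the array and 83 were tested. In the mean of both tissues 4 were higher and 4 lower in KO (9.64%, against 10.9% of all genes), with a median of 0.04 against 0.03. An unadjusted p under 0.05 in limma was found for 25 of the 83, beside 5676 of the 16780 genes. With median centring, which moved the median of all genes by 0.50 and called 14488 of the 16780 genes, 67 of the 83 were higher and 7 lower. None of the 83 passed in limma in cortex alone, in hippocampus alone or in the difference. There 22, 18 and 7 of the 83 had an unadjusted p under 0.05, beside 3548, 3977 and 750 of the 16780 genes. The separate-channel fit called 3, 5 and 0 of the 83, beside 691 of 16780 genes in cortex and 1005 in hippocampus. Fits with an array left out called almost no gene at all in the mean of both tissues, so they decide nothing about the 83. Of the 79 genes that were well above background in some sample of each genotype, 3 were higher and 4 lower (8.86%, against 8.21% of all such genes), a share near that of the array as a whole.

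Of the other propeptide-processing enzymes, 0 of 10 passed between KO and WT in the mean of both tissues, and neither did any of 8 other granule proteins or of 7 genes for copper and ascorbate supply and for proteins that bind Pam (limma). The share of all genes that passed there was 10.9%. Pcsk1, the convertase that starts the cutting of many precursors, had KO over WT of 0.07, -0.27, 0.13 and 0.06. Vgf, a granin-like precursor, had 0.10, 0.25, -0.01 and 0.19, with a mean of 0.13 ± 0.06 (adjusted p = 0.196). Atp7a, the pump that supplies copper to Pam, had 0.05, 0.13, -0.01 and -0.78, so its negative mean of -0.15 ± 0.13 rests on a single array. None of the 3 passed, and on no array was any of them as low as Pam.

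Of 26 genes of dense-core vesicle formation and release, 2 fell and 0 rose in KO. Of all genes 3.77% passed as lower and 7.12% as higher, which is the background for each list here. Syt10, a vesicle calcium sensor, fell by 0.50 ± 0.05 (adjusted p = 0.0233), and Arfip2, a membrane-binding protein of the Golgi, fell by 0.25 ± 0.05 (adjusted p = 0.0471). Of 22 genes listed as precursors of amidated peptides, 3 passed above 0 and 1 below, with a median of 0.17. Whether the peptide of each of these, Ghrh included, is amidated in mouse was not checked. Calca, the precursor of calcitonin gene-related peptide, rose by 0.51 ± 0.10 (adjusted p = 0.0475) and Npff, the precursor of neuropeptide FF, by 0.26 ± 0.05 (adjusted p = 0.0425). Ghrh, the precursor of growth hormone-releasing hormone, passed above 0 (adjusted p = 0.0261) but was not well above background in any WT sample, and its bound gives no fold. Sct, the secretin precursor, fell by 0.48 ± 0.04 (adjusted p = 0.0232) and was well above background in 4 of 4 KO and 3 of 4 WT samples. A further 10 genes were listed as precursors of peptides not amidated, which was not checked for each gene either. Of these, Cort, the cortistatin precursor, rose by 0.54 ± 0.07 (adjusted p = 0.0285, limma). Nts, the neurotensin precursor, fell by 0.37 ± 0.07 (adjusted p = 0.0470). Both lists of precursors thus had members that passed in each direction.

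Cortex and hippocampus differed at more of these genes. In KO 17 of 83 were higher and 9 lower in cortex (31.3%, against 15.8% of all genes), and in WT 16 were higher and 8 lower (28.9%, against 8.86% of all genes). Without KO cortex replicate 1 the count in KO was 12 and without KO cortex replicate 2 it was 14, while in WT it was 14 without cortex replicate 1, 9 without cortex replicate 2 and 15 without hippocampus replicate 1. Most of the calls were precursors, with 8 of the 22 listed as amidated higher and 3 lower in KO, and 9 higher and 2 lower in WT. The genes listed as precursors of peptides not amidated gave 3 of 10 higher and 2 lower in KO, and 4 higher and 2 lower in WT.

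Penk, the enkephalin precursor, was higher in cortex by 2.34 ± 0.28 in KO (adjusted p = 0.00840) and 2.60 ± 0.11 in WT (adjusted p = 0.00187). Tac1, the substance P precursor, was higher by 1.85 ± 0.15 in KO and 2.62 ± 0.21 in WT, and Pdyn, the dynorphin precursor, by 1.22 ± 0.11 in KO and 1.43 ± 0.13 in WT. These 3 precursors are also made by striatal neurons, whose markers were higher in the cortex samples too. The part of those cells in the values of any gene here was not tested. Crh, corticotropin-releasing hormone, was higher in cortex by 1.49 ± 0.11 in KO and 1.88 ± 0.12 in WT, and Kiss1, the kisspeptin precursor, by 1.78 ± 0.31 in KO and at least 3.41-fold in WT, where it was not well above background in hippocampus. Trh, thyrotropin-releasing hormone, had 0.44 ± 1.41 in KO, which did not pass (adjusted p = 0.873), and was at least 7.24-fold higher in cortex in WT. Cartpt had 1.33 ± 0.34 in KO (adjusted p = 0.0619) and was higher in cortex by 2.02 ± 0.12 in WT. Ucn, the urocortin precursor, had a fold of at least 2.42 for KO cortex over KO hippocampus and passed above 0 in WT too (adjusted p = 0.0260), though it was well above background in only 3 of the 8 samples. Nts was lower in cortex in both genotypes, at -1.76 ± 0.15 in KO and -1.101 ± 0.12 in WT (adjusted p = 0.0116), and so was Npb, the precursor of neuropeptide B, at -1.20 ± 0.11 in KO and -1.504 ± 0.17 in WT. For none of these genes was a difference between the genotypes shown, since none passed in the difference between the tissues' KO effects.

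Of the 26 genes of vesicle formation and release, 2 were higher and 3 lower in cortex in KO, and 2 higher and 2 lower in WT. Beside these stand 15.8% of all genes that passed in KO and 8.86% in WT. Of the propeptide-processing enzymes, Pcsk1 was higher in cortex by 0.38 ± 0.09 in KO (adjusted p = 0.0488) and 0.57 ± 0.09 in WT (adjusted p = 0.0288), the same direction as Pcsk2, while Cpz passed at 0.80 ± 0.11 in KO and had 0.15 ± 0.27 in WT, and Pcsk6 had -0.49 ± 0.15 in KO and passed at -0.55 ± 0.08 in WT. Doc2b, a calcium-binding protein of vesicle priming, had the largest tissue difference among the vesicle genes, with -1.76 ± 0.07 in KO and -1.31 ± 0.15 in WT. Sytl4, a Rab27 effector, had -1.05 ± 0.10 in KO and was at least 1.34-fold lower in cortex in WT, and Rph3a, a Rab3 effector, had 0.50 ± 0.08 in KO and 0.57 ± 0.10 in WT. Myrip passed at 0.46 ± 0.08 in KO and had 0.31 ± 0.08 in WT, and Syt4 had 0.40 ± 0.12 in KO and passed at 0.51 ± 0.10 in WT. Of the other granule and supply genes, Cyb561, which carries electrons from ascorbate into the vesicle, passed at 0.59 ± 0.09 in KO and had 0.28 ± 0.14 in WT, Slc23a2, an ascorbate transporter, passed at 0.51 ± 0.09 in KO and had 0.25 ± 0.11 in WT, and Slc18a2, the vesicular monoamine transporter, had -0.40 ± 0.08 in KO and -0.71 ± 0.08 in WT.

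**Figure D5:**
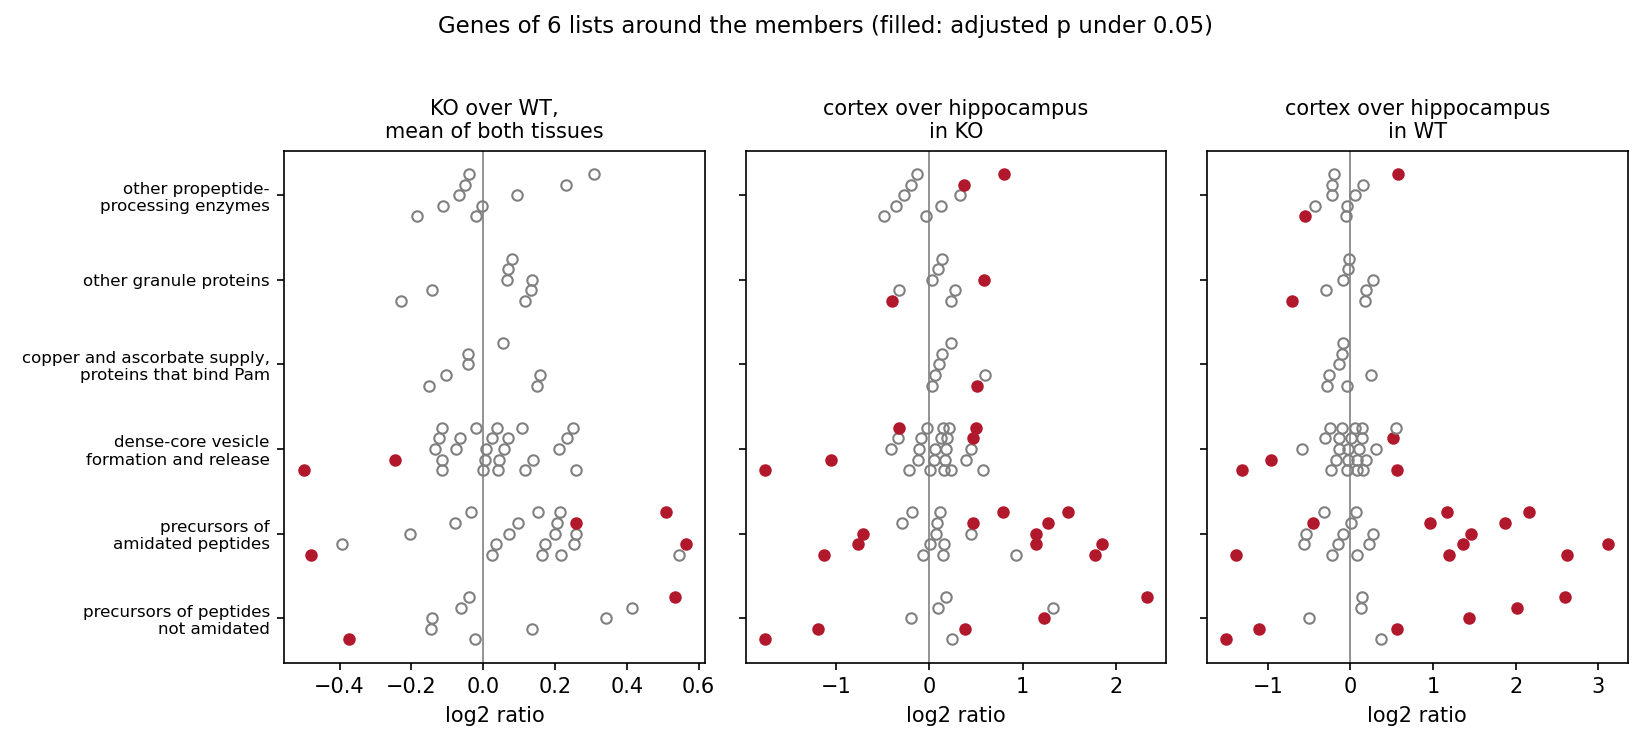
Log2 ratios of the 83 tested genes of 6 lists around the 9 genes, for KO over WT in the mean of both tissues (left), cortex over hippocampus in KO (middle) and in WT (right). Each point is a gene and filled points have an adjusted p under 0.05, with 4 higher and 4 lower on the left, 17 higher and 9 lower in the middle, and 16 higher and 8 lower on the right.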

How the data were processed

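The deposited scanner intensities (mean signal and median local background per spot) come, per the file headers, from version 10.1.1.1 of Feature Extraction, as do the log10 ratios of Cy5 over Cy3, used here only to check the direction of the ratios. The authors' deposited value table holds log2 values per channel with an unstated background correction and centring. Its column medians were 8.21 to 8.25, and its log ratios had r = 0.938 to 0.967 with the loess ratios in the direction KO over WT. Limma is named in the submitters' processing notes.

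In R 4.3.3 (limma 3.58.1, and data.table at version 1.17.8) backgrounds were corrected with normexp (offset 50), with outlying local backgrounds set to the array median. Arrays were normalised with loess (span 0.3, 1377 control spots at weight 0), and channels scaled with Aquantile. Spots of a probe were averaged, the brightest probe stood for a gene, and 16780 genes were kept, each well above background in both samples of some group. Linear fits with eBayes used 1 mean per tissue over the 4 log ratios (2 residual degrees of freedom), or the 4 channels of a genotype for cortex over hippocampus, with Benjamini-Hochberg adjustment over all genes and a threshold of 0.05. Where a probe is not well above background in a group, its fold is a bound (at least N-fold) that sets the other group's mean against the lowest level well above background on each array, or against the probe itself where that is higher. The number of arrays limits the precision. The fits were tested on simulated data. Of 100 genes changed by 0.5, they called 7 in cortex alone and 54 in the mean of both tissues. Of 100 changed by 1.5, they called 80 and 86. A small change can thus fail to pass, above all in a single tissue. Positions are mm9, per the file headers.

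The 9 members, the gene lists and the treatment of outlying backgrounds were chosen with earlier results of these data known. Named were all members with every probe, list genes past the threshold (at most 4 a list and comparison by size), Pcsk1, Vgf and Atp7a in any case, tested genes within 1000000 bases of Pam, the 5 genes most like Pam over the samples, and Tet1. Alternatives were the background, normalisation, filter, probe choice, variance model, channel fits, replicate block and left-out arrays.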

Additional observations from a re-analysis of the deposited data

How the results depend on the processing

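In the mean of both tissues no direction of Cpe, Chgb, Pcsk2 or Scg2 between KO and WT changed under any alternative run. No alternative read Cpe by probe A_55_P2152248 alone, which lay below 0 on every array. The direction of Pcsk2, Scg5, Scg2, Scg3, Chga, Chgb and Pcsk1n between the tissues did not change either. Pam stayed lower in KO in all alternatives, while calls and counts depended on the processing. The causes were not tested. Genes passing between KO and WT in cortex, in hippocampus and in the mean of both tissues (10, 3 and 1828) came to 0, 7 and 3 with outlying backgrounds kept, 139, 373 and 1209 with the scanner software's processed signals, 17, 10 and 995 under a strict filter, 28, 10 and 3366 without a filter, 0, 0 and 0 with a variance trend and robust estimation, 691, 1005 and 3390 in the separate-channel fit, and 13721, 13364 and 14488 with median centring. Cortex and hippocampus gave 22 and 16 both without background subtraction and with the authors' deposited values, 36 and 25 with the mean of a gene's probes, and 293 and 451 over 8 single channels. Every probe by itself gave 1 in hippocampus and 3199 in the mean. Median centring gave 114 in the difference between the tissues, which had 0. With an array left out the counts were 0 to 0, 0 to 1 and 0 to 1 for KO over WT, 832 to 2092 for cortex over hippocampus in KO (2644) and 323 to 1038 in WT (1487), where processed signals gave 910 and the separate-channel fit 2504. The share of calls higher in KO, 65.4%, became 54.3% under the strict filter, 52.6% without a filter and 82.8% with median centring. Pam in cortex was -0.93 with outlying backgrounds kept and -0.96 with median centring, and in hippocampus -1.39 without background subtraction, -1.63 with processed signals, -1.39 with the deposited values and -0.99 with median centring (-1.60 to -1.42 and -1.60 to -1.49 with an array left out). Members whose 4 KO levels were clear of the WT levels, Pam included, numbered 2, and 3 with processed signals. Within a tissue Scg2 in cortex, at 0.031, was -0.053 with outlying backgrounds kept and -0.013 with processed signals, and Pcsk2 in hippocampus, at 0.0022, was -0.049 with processed signals.

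Median centring, which moved the median of all genes by 0.50, reversed Pcsk1n (1.01), Scg5 (0.65), Scg3 (0.82) and Chga (0.68) in the mean of both tissues, and kept backgrounds reversed Pcsk1n (0.047). Between the tissues, near 0, Cpe in KO was 0.036 with backgrounds kept, Pam in KO was 0.53 with backgrounds kept, -0.018 under quantile scaling and -0.060 to 0.100 with an array left out, and Pam in WT was 0.0030 without background subtraction, 0.0032 with deposited values, 0.034 with processed signals, 0.026 under quantile scaling, and -0.15 to 0.13 with an array left out. The numbers of the replicates are only shared, and the deviations of same-numbered arrays correlated at 0.17. With the number as a replicate block, 153 genes passed in cortex, 424 in hippocampus, 2466 in the mean, 3220 between the tissues in KO and 1481 in WT, and no member other than Pam gained or lost a call between KO and WT. List counts under the alternatives were added after seeing the data.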
